A study of Homo sapiens with 9 samples.

Results

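BRD7 and 9 partner genes of the SWI/SNF chromatin remodelling complex were followed through RAS-induced senescence and its bypass in human fibroblasts. The genes were taken by symbol from the deposited expression table, which holds 13745 genes. All 10 were found there, and all 10 passed the filter on low values that left 12481 genes for testing. The cells were BJ fibroblasts, a human skin fibroblast line immortalised with telomerase (hTERT), in which the oncogenic form RASG12V can be activated. Growth arrest then follows in a state called oncogene-induced senescence. RNA-seq of polyA RNA gave 9 libraries in 5 groups. RAS was activated in cells knocked down for BRD7 (1 library) or p53 (1 library), and in cells knocked down for LncRNA-OIS1, a long non-coding RNA (4 libraries, hairpins 32-2, 32-3, 32-8 and 32-9). RAS-activated senescent cells with a non-targeting hairpin gave 2 libraries (hairpins 500 and 507, the second titled Ctr2 but named Ctr1 in its condition label), and a control with non-targeting hairpin 500 and no RAS activation gave 1. By the labels every library, the control included, had 4-OHT for 14 days, whereas the series' design speaks of untreated cells. Hairpins of the BRD7 and p53 knockdowns are not named, and separate cultures are not stated. A p-value here thus reflects the scatter among libraries of 1 cell line. Each library of the senescent and LncRNA-OIS1 groups had a different hairpin, so differences between hairpins cannot be told apart from technical ones in this scatter.

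SWI/SNF complexes use ATP to slide or evict nucleosomes, and each assembly is built around either SMARCA4 (BRG1) or SMARCA2 (BRM) as its ATPase. The PBAF form carries BRD7, PBRM1, ARID2 and PHF10, the canonical BAF form carries ARID1A or ARID1B, and the non-canonical form carries BRD9 and lacks SMARCB1, a core subunit of the other forms. BRD7 is also known as a cofactor of p53 that is needed for full p53 activity in oncogene-induced senescence of human fibroblasts.

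Each value below is the authors' normalised read count. All 9 columns of the table hold the same set of values, summing to 14916466.5 with a lowest value of 20 and 340.1 in the middle. Depth is therefore unknown, and counting error has no estimate. The control library and the library with LncRNA-OIS1 hairpin 32-9 (replicate 4) stood apart from the rest. The control had 490 genes more than 2-fold above, and 315 more than 2-fold below, every other library. For replicate 4 of the LncRNA-OIS1 knockdown these counts were 300 and 224, against at most 27 and 24 in the other libraries. Of 10 fibroblast markers 10 were in the table, while 3 of 7 epithelial, 2 of 6 leukocyte and 1 of 6 endothelial markers were. EPCAM, CDH1, PECAM1, CDH5, CD3E and CD79A were not among the genes analysed here. No row under the name LncRNA-OIS1 was analysed, so the knockdown in its 4 libraries was not checked.

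BRD7 (ENSG00000166164, chromosome 16), the bromodomain subunit of PBAF, was low in its own knockdown library and level elsewhere. It stood at 94.6 in the BRD7 knockdown library, 654 in the p53 knockdown library, 632.6, 628.7, 695.3 and 652.9 in LncRNA-OIS1 replicates 1 to 4, 628.7 and 536.6 in the senescent libraries and 605.1 in the control. The knockdown library held 17.6% of the lowest value among the other 8, and no other library came near it. By the ratio of this library to the lowest of the other 8, BRD7 was the lowest of 12481 genes.

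Against the senescent libraries BRD7 was at 16.2% of their mean of 583 ± 65.1 (SD, n = 2), a log2 change of -2.62 (SE 0.15). This passed limma's test with Benjamini-Hochberg adjustment over all genes (adjusted p = 0.0461). BRD7 was the 1 gene of 12481 called in this comparison, so the share called, 0.00801%, is BRD7 itself. The size held under 12 alternative settings (log2 -2.73 to -2.13), while the call was lost in 9 of them, including each fit that left out 1 senescent or LncRNA-OIS1 library (adjusted p between 0.0108 and 0.592 over the 12). The knockdown also showed against the control (log2 -2.68, adjusted p = 0.00283), where 2.32% of all genes were called lower and 1.47% higher, and the call held under all 12 alternatives. It passed against the LncRNA-OIS1 libraries (log2 -2.78, adjusted p = 0.0197) and against the p53 knockdown library (log2 -2.79, adjusted p = 0.036). These comparisons called 1 gene (0.00801%) and 2 genes (0.0160%) of 12481, BRD7 included. Both calls of BRD7 against knockdown libraries were lost in each fit that left out 1 library.

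In senescent cells BRD7 lay near its control level. The senescent mean of 583 ± 65.1 stood against 605.1 in the control, and the control value lay between the senescent libraries. The log2 change was -0.06 with a 95% interval of -0.43 to 0.31 (limma adjusted p = 0.823). Without senescent replicate 2 it was 0.06. The 4 LncRNA-OIS1 libraries averaged 652 ± 30.5 (SD, n = 4), 0.17 above the senescent libraries on the log2 scale (interval -0.09 to 0.43, adjusted p = 0.405), with 1 value shared between the groups. Over the 8 libraries outside its own knockdown BRD7 varied 1.3-fold.

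**Figure D1:**
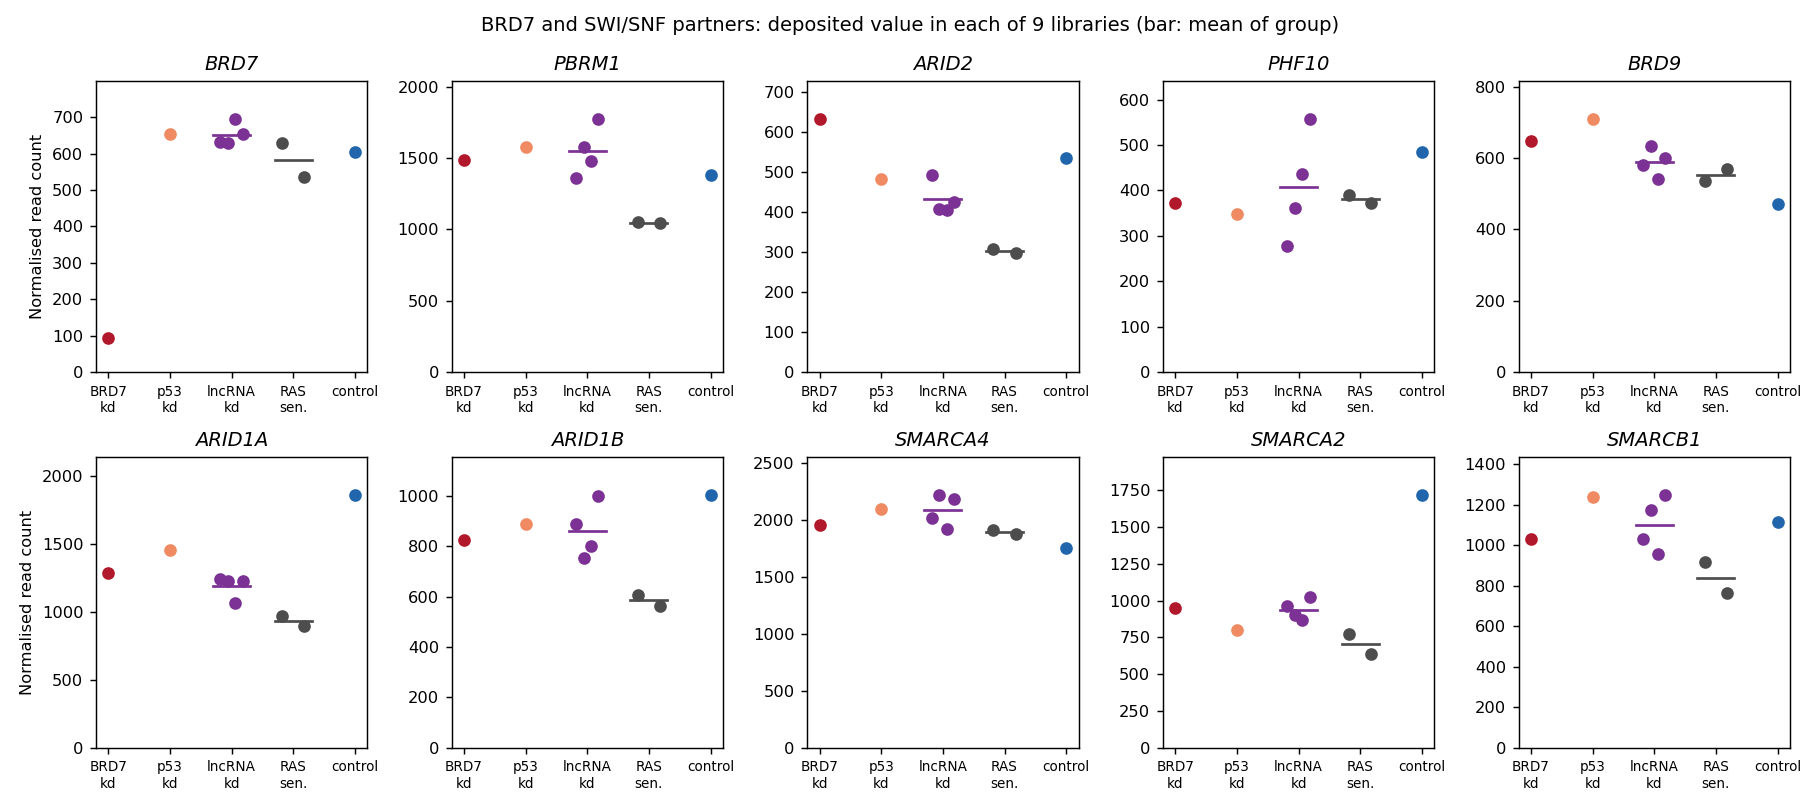
Deposited normalised read count (y axis, from 0) of each of the 10 genes in the 9 libraries, grouped on the x axis as BRD7 knockdown, p53 knockdown, LncRNA-OIS1 knockdown, RAS senescent and control; points are libraries and bars are group means. BRD7 stands at 94.6 in its knockdown library and at 536.6 or more elsewhere, and the senescent libraries are the lowest for PBRM1, ARID2, ARID1A, ARID1B, SMARCA2 and SMARCB1.

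The senescent libraries were compared with the control to see how the partners stood in RAS-activated senescent cells. SMARCA2, ARID1A, ARID2 and ARID1B were lower in senescent cells, at 41% to 58.3% of the control value. SMARCA4 and BRD9 were slightly above the control in both senescent libraries and did not pass the test. By limma 4 of the 10 genes fell and 0 rose, beside 7.10% of all tested genes called lower and 7.95% called higher. The median log2 change over the 10 genes was -0.41, beside 0.03 over all genes tested. The control is a single library that stands apart from the rest, and its own spread, which 1 library cannot give, was taken from the replicated groups. The same holds for the p53 and BRD7 knockdown libraries. All 4 calls were lost when either senescent library was left out, when calls over all genes also numbered 137 without replicate 1 and 122 without replicate 2, in place of 1878. The log2 changes were then -1.43 and -1.16 for SMARCA2, -1.06 and -0.94 for ARID1A, -0.84 and -0.80 for ARID2 and -0.83 and -0.73 for ARID1B. ARID2 and ARID1B also lost their calls without LncRNA-OIS1 replicate 2 or 3, and ARID1B without replicate 1. In bulk RNA, fewer cells of a type and less RNA per cell cannot be told apart.

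The summed level of the 10 fibroblast markers, like the levels of SMARCA2, ARID1A and ARID1B, was lowest in the senescent libraries and highest in the control, and its part in the result was not tested. It was 220632 with BRD7 knockdown, 212028 with p53 knockdown, 201935 to 252724 with LncRNA-OIS1 knockdown, 143115 to 158148 in the senescent libraries and 428822 in the control. In senescent libraries 5 of 10 were called lower than in the control, among them COL1A1, a chain of type I collagen (log2 -3.60, adjusted p = 0.0144), and 0 higher. The markers did not move together, as 4 of the 10, VIM, COL6A1, COL6A2 and S100A4, had a log2 change above 0. The largest control values were those of COL1A2 (129460.3), COL1A1 (110360.7) and FN1 (83304.2), so the sum follows these genes most. The 3 epithelial markers summed to 801 to 3687, highest in the control, with 0 called in senescent libraries against the control. The 2 leukocyte markers summed to 45.1 to 196, and PTPRC, the pan-leukocyte CD45 gene, was at the floor of 20 in all 8 RAS libraries and at 156.6 in the control, a fall that passed the test (adjusted p = 0.00103). PTPRC reached the filter's 40 in the control alone, so its entry into the test already rested on a high control value. The call therefore adds nothing to the values themselves. With all 8 RAS values at the floor PTPRC had no scatter within groups. Its spread in the test was borrowed from other genes, so this p-value does not measure its own scatter. The 1 endothelial marker, TIE1, stood at 22.2 to 267, highest with p53 knockdown and lowest in the control, and was not called in senescent libraries against the control.

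Among the ATPases, SMARCA2 (BRM, ENSG00000080503, chromosome 9) showed the deepest fall of the 10 genes in the senescent libraries against the control. SMARCA2 stood at 772.1 and 638.3 in the senescent libraries against 1719.9 in the control. The mean of 705 ± 94.6 (SD, n = 2) was 41% of the control value (log2 -1.29, SE 0.17, limma adjusted p = 0.0111). SMARCA2 kept this call in 10 of 12 alternatives. It was also below the control with LncRNA-OIS1 knockdown, at 961.7, 904.9, 865 and 1026.3 (log2 -0.88, adjusted p = 0.0237), and with p53 knockdown, at 800 (log2 -1.10, adjusted p = 0.0304). The BRD7 knockdown library had 951.1 (log2 -0.85, adjusted p = 0.0796). With LncRNA-OIS1 knockdown against the control 2 of the 10 genes, ARID1A and SMARCA2, were called, both lower, beside 5.83% of all genes called lower and 5.38% called higher. Without senescent replicate 1 or 2, or LncRNA-OIS1 replicate 1 or 2, the count was 0. p53 knockdown against the control called SMARCA2 alone, 1 of 10, beside 4.66% of all genes called lower and 4.43% called higher. It was 0 without either senescent library or LncRNA-OIS1 replicate 1, 2 or 3. BRD7 knockdown against the control called BRD7 alone, and SMARCA2 as well without LncRNA-OIS1 replicate 4. All 8 RAS libraries thus lay below the control for SMARCA2, as they did for ARID1A and ARID1B, 3 of the 10 genes beside 23.1% of all genes tested.

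SMARCA4 (BRG1, ENSG00000127616, chromosome 19), the alternative ATPase, varied least of the 10 genes. It stood at 1906.3 and 1870.2 in the senescent libraries against 1754 in the control (log2 0.11, 95% interval -0.20 to 0.41, adjusted p = 0.594). Over all 9 libraries it varied 1.27-fold, between 1754 in the control and 2218.9 in LncRNA-OIS1 replicate 2. Levels of different genes were compared per kilobase of the longest coding transcript in GENCODE 29, an annotation of another genome build than the table's. On this scale the senescent level was 99.9 for SMARCA2 and 326 for SMARCA4, while the control level was 244 for SMARCA2 and 303 for SMARCA4.

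Within each library the ratio of SMARCA2 to SMARCA4 does not depend on gene length when it is followed across libraries. It was 0.487 with BRD7 knockdown, 0.382 with p53 knockdown, 0.408 to 0.477 with LncRNA-OIS1 knockdown, 0.405 and 0.341 in the senescent libraries and 0.981 in the control. All 8 RAS libraries lay far below the control. The difference between the senescent mean and the control was -1.40 on the log2 scale, and with 1 control library it has no test of its own. The LncRNA-OIS1 mean was above the senescent mean by a log2 difference of 0.28, and the groups did not overlap. The exact two-sided permutation test gave p = 0.0667, the smallest that 4 against 2 libraries allow (adjusted over 3 ratios, 0.2).

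To show the promoters of the ATPase that fell, the one that varied least and ARID1A, the 250 bases before the most upstream start of each gene are printed 5′ to 3′ on the gene's strand, from RefSeq on GRCh38.p14. Capitals mark the GC box GGGCGG or its reverse complement, a motif known from SP1-family binding. The windows are chr9:2015097-2015346 (plus strand), chr19:10960780-10961029 (plus strand) and chr1:26695765-26696014 (plus strand).
SMARCA2: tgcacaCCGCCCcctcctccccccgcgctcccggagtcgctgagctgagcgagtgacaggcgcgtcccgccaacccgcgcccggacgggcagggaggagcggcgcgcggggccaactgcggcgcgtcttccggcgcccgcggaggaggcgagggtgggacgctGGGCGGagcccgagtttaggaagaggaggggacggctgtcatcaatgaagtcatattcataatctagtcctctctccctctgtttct
SMARCA4: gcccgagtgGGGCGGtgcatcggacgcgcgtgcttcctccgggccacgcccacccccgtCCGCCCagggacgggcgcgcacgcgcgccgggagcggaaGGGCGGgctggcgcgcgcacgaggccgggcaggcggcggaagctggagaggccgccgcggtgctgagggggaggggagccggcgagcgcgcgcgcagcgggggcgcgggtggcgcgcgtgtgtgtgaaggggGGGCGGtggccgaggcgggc
ARID1A: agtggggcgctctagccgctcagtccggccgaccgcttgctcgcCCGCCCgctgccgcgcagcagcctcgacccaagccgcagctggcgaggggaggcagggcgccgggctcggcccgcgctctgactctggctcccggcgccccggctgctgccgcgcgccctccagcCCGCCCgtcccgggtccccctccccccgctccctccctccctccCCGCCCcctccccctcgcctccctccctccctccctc
The GC box was found on either strand 2 times in the SMARCA2 window, 4 times in the SMARCA4 window and 3 times in the ARID1A window. It was present in 6 of the 9 windows matched by symbol (ARID2 was not matched) and in 42.6% of 35116 windows of all genes. GC content was 68.8% for SMARCA2, 82.4% for SMARCA4 and 80.4% for ARID1A, beside a median of 58% over all windows. CCAAT was found in 3 of the 9 windows (32% of all) and TATAAA in 0 (10.7% of all), again on either strand. A match is a description of the letters only.

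ARID1A (ENSG00000117713, chromosome 1) and ARID1B (ENSG00000049618, chromosome 6) are the alternative ARID subunits of canonical BAF. ARID1A stood at 970.7 and 893 in the senescent libraries against 1860 in the control, a mean of 932 ± 54.9 (SD, n = 2), or 50.1% of the control value (95% interval of the log2 change -1.34 to -0.66, adjusted p = 0.0134). ARID1B had 607.1 and 564.7 in the senescent libraries against 1005.2 in the control (log2 -0.78, SE 0.19, adjusted p = 0.0483). The ARID1B call was lost in 7 of 12 alternatives and the ARID1A call in 2. With LncRNA-OIS1 hairpins ARID1A averaged 1187 ± 84.3 and stayed below the control (log2 -0.65, adjusted p = 0.0312).

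The ratio of ARID1B to ARID1A ranged less widely. It was 0.64 with BRD7 knockdown, 0.612 with p53 knockdown, 0.616 to 0.815 with LncRNA-OIS1 knockdown, 0.625 and 0.632 in the senescent libraries and 0.54 in the control. The log2 difference of LncRNA-OIS1 from senescent libraries was 0.20 (exact permutation p = 0.333, adjusted 0.5), and the groups overlapped.

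Of the PBAF partners of BRD7, ARID2 passed the test of senescent libraries against the control. ARID2 (ENSG00000189079, chromosome 12), the ARID subunit of PBAF, stood at 308.2 and 297.9 in the senescent libraries against 535.1 in the control (log2 -0.82, SE 0.17, adjusted p = 0.0318). PBRM1 (ENSG00000163939, chromosome 3), the PBAF subunit with several bromodomains, stood at 1050.9 and 1042.9 in the senescent libraries against 1377.9 in the control (log2 -0.40, interval -0.82 to 0.02, adjusted p = 0.166). PHF10 (ENSG00000130024, chromosome 6), the PHD-finger subunit, had 390.1 and 372.3 in the senescent libraries against 485.3 in the control (log2 -0.35, interval -1.34 to 0.64, adjusted p = 0.59). For all 3 genes both senescent libraries lay below the control, and the intervals of PBRM1 and PHF10 reached past 0.

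SMARCB1 (ENSG00000099956, chromosome 22), the core subunit also called INI1, and BRD9 (ENSG00000028310, chromosome 5), the bromodomain subunit of the non-canonical form and a paralog of BRD7, went in opposite directions without passing the test. SMARCB1 had 916.1 and 763.7 in the senescent libraries against 1114.7 in the control (log2 -0.41, interval -0.92 to 0.09, adjusted p = 0.217). BRD9 had 534.4 and 569.9 in the senescent libraries against 471.3 in the control (log2 0.23, interval -0.12 to 0.57, adjusted p = 0.308). The BRD7 to BRD9 ratio was 0.146 in the BRD7 knockdown library, 0.922 in the p53 knockdown library, 0.99 to 1.29 with LncRNA-OIS1 hairpins, 1.18 and 0.942 in the senescent libraries and 1.28 in the control. For LncRNA-OIS1 against senescent libraries its log2 difference was 0.07 (exact permutation p = 0.8, adjusted 0.8) and changed sign without senescent replicate 2 (-0.09).

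**Figure D2:**
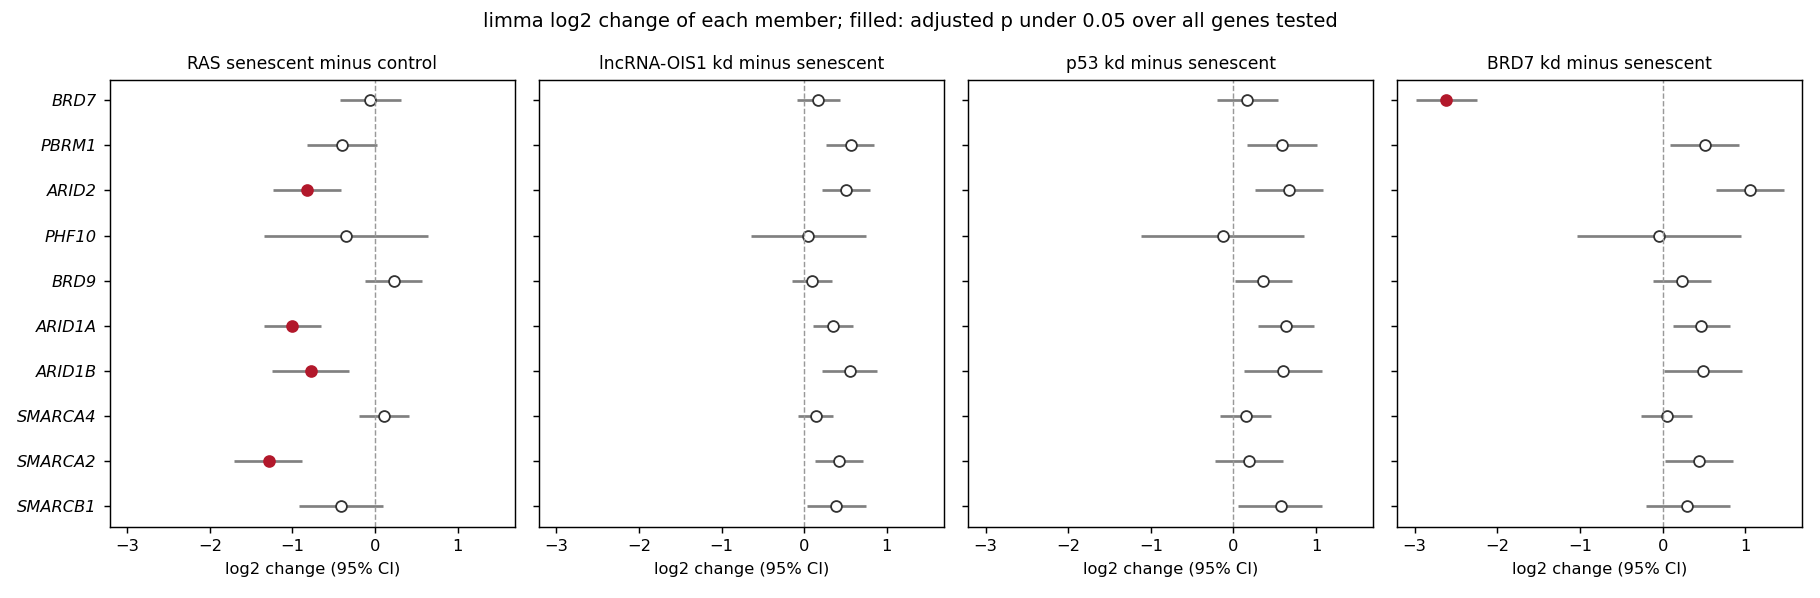
log2 change of each gene from limma (x axis, points, with 95% intervals as lines) for RAS senescent minus control and for LncRNA-OIS1, p53 and BRD7 knockdown minus senescent; filled points passed an adjusted p of 0.05 over all genes tested. SMARCA2, ARID1A, ARID2 and ARID1B are filled for senescent minus control, BRD7 alone for BRD7 knockdown minus senescent, and no gene for the LncRNA-OIS1 and p53 knockdowns.

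Each knockdown was then set against the senescent libraries, to see how the complex stood in cells that the series' title calls senescence bypass cells. The 7 genes PBRM1, ARID2, ARID1A, ARID1B, SMARCA4, SMARCA2 and SMARCB1 were higher in all 6 knockdown libraries than in both senescent libraries. The margin was narrowest for SMARCA4, at 1915.8 in LncRNA-OIS1 replicate 3 against 1906.3 in senescent replicate 1. It was also narrow for SMARCA2, at 800 with p53 knockdown against 772.1 in senescent replicate 1. These 7 of 10 genes stand beside 14.7% of all genes tested. For 6 of them, all but SMARCA4, both senescent libraries were the lowest of all 9, beside 11.1% of all genes. This arrangement was noticed after the values were seen, and the 3 knockdowns share the same 2 senescent libraries, so their values are not independent of each other. It held for the same 6 genes with median-of-ratios scaling.

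LncRNA-OIS1 knockdown called 0 of the 10 genes by limma against the senescent libraries, as it did for all genes (background 0%). Over all genes 417 of 12252 were called without LncRNA-OIS1 replicate 4, 57 of 13745 without the filter on low values and at most 1 in the other alternatives. At an unadjusted p under 0.05 there were 6 of 10, beside 22.5% of all genes. PBRM1 had 1357.9, 1578.3, 1477.9 and 1774 with LncRNA-OIS1 hairpins against 1050.9 and 1042.9 in the senescent libraries (log2 0.56, SE 0.12, adjusted p = 0.0881). ARID2 had 493.4, 406.4, 404.1 and 425 with LncRNA-OIS1 hairpins against 308.2 and 297.9 in the senescent libraries (log2 0.51, SE 0.12, adjusted p = 0.0941). ARID1B had 889.4, 754.2, 802.1 and 999.6 with LncRNA-OIS1 hairpins against 607.1 and 564.7 in the senescent libraries (log2 0.55, SE 0.13, adjusted p = 0.101).

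All 4 LncRNA-OIS1 libraries lay above both senescent libraries for these 3 genes and for ARID1A (log2 0.35), SMARCA2 (0.42), SMARCB1 (0.39) and SMARCA4 (0.14), with adjusted p of 0.122 to 0.401. That is 7 of the 10 genes, beside 17.1% of all genes tested. All 10 genes had a log2 change above 0, beside 47% of all genes, with a median of 0.37 beside -0.02 over all genes. PHF10 was the most variable with LncRNA-OIS1 hairpins, at 277.9, 360.9, 437.2 and 557.3 (CV 29.1%) against 390.1 and 372.3 in the senescent libraries. Its log2 change of 0.05 became -0.11 without replicate 4 and -0.27 with the replicate number as a block. The fits without 1 LncRNA-OIS1 library, replicate 4 included, and the fit with the replicate number as a block called none of the 10 genes.

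p53 knockdown called 0 of the 10 genes against the senescent libraries in the fit to all 9 libraries, beside 3.84% of all genes called and 2.27% called higher. At an unadjusted p under 0.05 there were 6 of 10 genes, beside 26.3% of all genes. ARID1A had 1450.8 in the p53 knockdown library against 970.7 and 893 in the senescent libraries (log2 0.64, SE 0.14, adjusted p = 0.0621). PBRM1 had 1577.3 in the p53 knockdown library against 1050.9 and 1042.9 in the senescent libraries (log2 0.59, adjusted p = 0.0995). Without LncRNA-OIS1 replicate 4, whose spread enters every test, ARID1A, ARID1B and PBRM1 were called higher (adjusted p = 0.0392, 0.043 and 0.0352), in a fit that called 2431 of 12252 genes. Over all genes 479 were called with all libraries, 0 without either senescent library or LncRNA-OIS1 replicate 1, 2 or 3, and 2 with no variance trend. SMARCA2, at 800, stayed close to the senescent libraries at 772.1 and 638.3 (log2 0.19, interval -0.22 to 0.60, adjusted p = 0.532).

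BRD9 was highest of all 9 libraries with p53 knockdown, at 709.3 against 534.4 and 569.9 in the senescent libraries (log2 0.36, adjusted p = 0.174). TRIP13, a mitotic checkpoint gene whose exons overlap those of BRD9 on the opposite strand in GENCODE 29, was also highest there, at 1290.7 in the p53 knockdown library against 302.8 and 264.7 in the senescent libraries. The sources do not say if counting was strand-aware, and the part of TRIP13 reads in the BRD9 value was not tested. In that annotation 9 of the 10 genes have an exon that overlaps another gene's exon, 8 of them a gene on the opposite strand. BRD7 overlaps ADCY7, an adenylate cyclase gene, which stood at 618 in the BRD7 knockdown library, 505.2 and 508.2 in the senescent libraries and 150.8 in the control. It also has 5 pseudogenes by name, which were not analysed here. The part of ADCY7 or pseudogene reads in the BRD7 value was not tested.

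With BRD7 knockdown the log2 change from the senescent libraries was above 0 for 8 of the 9 partners, beside 47.6% of all genes. None of the 9 partners passed the test. ARID2 had the largest change of the 9 partners, at 632.6 in the BRD7 knockdown library against 308.2 and 297.9 in the senescent libraries. The log2 change was 1.06 (SE 0.17, unadjusted p = 0.000866) and did not pass after adjustment over all genes (adjusted p = 0.196, and 0.0964 to 0.822 over the alternatives). ARID2 was higher there than in any other library, 1.18 times the next highest, the control at 535.1, and 4% of all genes tested were highest in this library.

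PBRM1 had 1485.7 with BRD7 knockdown against 1050.9 and 1042.9 in the senescent libraries (log2 0.51, adjusted p = 0.289), and ARID1A had 1286.8 against 970.7 and 893 in the same senescent libraries (log2 0.47, adjusted p = 0.247). PHF10, the remaining PBAF subunit, had 371.3, just below the senescent values of 390.1 and 372.3 (log2 -0.04, interval -1.03 to 0.95, adjusted p = 1). SMARCA4 had 1953 with BRD7 knockdown against 1906.3 and 1870.2 in the senescent libraries (log2 0.05, interval -0.26 to 0.35, adjusted p = 0.936). BRD9, the paralog, had 647.2 with BRD7 knockdown against 534.4 and 569.9 in the senescent libraries (log2 0.23, interval -0.12 to 0.58, adjusted p = 0.537). Of the 9 partners 0 were called by limma, and 5 had an unadjusted p under 0.05, beside 13.9% of all genes. Against the LncRNA-OIS1 and the p53 knockdown libraries, too, BRD7 was the 1 gene of the 10 called.

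Further SWI/SNF subunits were described from a list of 19, of which 18 were tested (ACTL6B was not analysed here). In senescent libraries against the control 1 rose and 0 fell, beside 7.95% of all genes called higher and 7.10% lower, with a median log2 change of -0.17 (0.03 over all genes). It was DPF1, a PHD-finger subunit known from neurons. DPF1 stood at 69.3 and 58.4 in the senescent libraries against 29.2 in the control (log2 1.12, adjusted p = 0.0445). That control value is near the floor of 20, and every comparison of DPF1 with the control rests on it. With p53 knockdown against senescent libraries 1 rose, ACTL6A, the actin-related subunit of dividing cells, beside 2.27% of all genes called higher and 1.57% lower. ACTL6A stood at 1771.9 in the p53 knockdown library against 953.1 and 906.1 in the senescent libraries (log2 0.93, adjusted p = 0.0476). No gene was called in that comparison without either senescent library or LncRNA-OIS1 replicate 1, 2 or 3, so the ACTL6A call is lost there. LncRNA-OIS1 and BRD7 knockdown against senescent libraries called 0 of the 18 by limma. At an unadjusted p under 0.05 there were 3 with LncRNA-OIS1 knockdown, beside 22.5% of all genes, and 2 with BRD7 knockdown, beside 13.9%.

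Against the control, LncRNA-OIS1 knockdown had 2 higher, DPF1 and DPF3, and 1 lower, SMARCD3, beside 5.38% of all genes called higher and 5.83% lower. DPF3, the subunit known from heart and muscle, had 155.2, 165.4, 344.2 and 219.9 with LncRNA-OIS1 hairpins against 53.1 in the control (log2 1.98, adjusted p = 0.0477). The senescent libraries were as high, at 200.6 and 212.3 (log2 1.96 against the control, adjusted p = 0.0519). SMARCD3, the BAF60C subunit, had 288.1, 238.4, 262.1 and 244.7 with LncRNA-OIS1 hairpins against 542.6 in the control (log2 -1.07, adjusted p = 0.0149), while the senescent libraries had 403.2 and 428. With p53 knockdown against the control ACTL6A and DPF1 rose (log2 1.08 and 1.72, adjusted p = 0.0298 and 0.0313) and SMARCD3 fell (log2 -1.29, adjusted p = 0.0237). Of all genes 4.43% were called higher in that comparison and 4.66% lower. BRD7 knockdown against the control called 0 of the 18, with 6 at an unadjusted p under 0.05, beside 21.2% of all genes. SMARCE1, the BAF57 subunit, was at 983.2 in LncRNA-OIS1 replicate 4 and between 1601.9 and 2182.9 in the other 8 libraries. It was singled out after its values were seen.

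**Figure D3:**
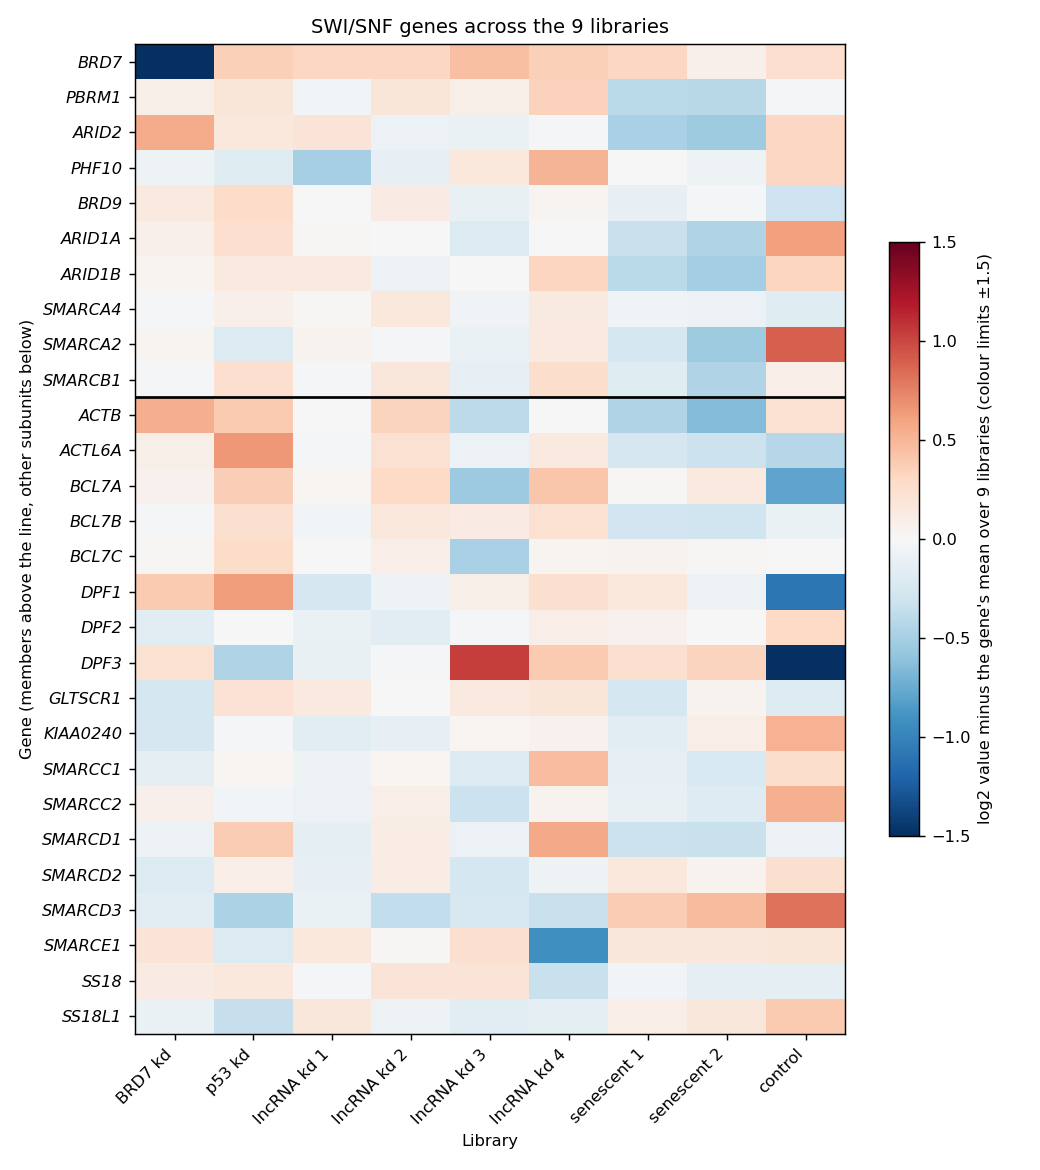
log2 value of each gene minus its mean over the 9 libraries (colour, limits ±1.5) for the 10 genes above the line and the 18 further SWI/SNF subunits below it; columns are libraries. The blue senescent cells of PBRM1, ARID2, ARID1A, ARID1B, SMARCA2 and SMARCB1 are the lowest of their rows, and the darkest cell of the upper block is BRD7 in its own knockdown library (94.6).

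Because BRD7 is a p53 cofactor, 28 p53 target genes were followed beside it. Against the senescent libraries BRD7 knockdown called 0 of 28 by limma. At an unadjusted p under 0.05 there were 4, beside 13.9% of all genes. The median log2 change was -0.38, beside -0.02 over all genes. Of the 28, 24 were below 0 and 4 above, beside 47.6% of all genes above 0. LncRNA-OIS1 knockdown likewise called 0 of 28, with 7 at an unadjusted p under 0.05, beside 22.5% of all genes. Its median was -0.49, with 24 of 28 below 0 and 4 above, beside 47% of all genes above 0. With p53 knockdown 20 of 28 had an unadjusted p under 0.05, beside 26.3% of all genes. The median was -1.07, with 25 of 28 below 0 and 3 above, beside 49.6% of all genes above 0. p53 knockdown called 3 lower, SPATA18, BTG2 and CDKN1A, beside 1.57% of all genes called lower. These 3 calls are lost without either senescent library or LncRNA-OIS1 replicate 1, 2 or 3, where no gene was called. The 3 knockdowns share the senescent libraries. CDKN1A, the cyclin-dependent kinase inhibitor p21, had 9405.6 with BRD7 knockdown, 2721.1 with p53 knockdown and 15473.7, 11146.3, 12588.4 and 6989.6 with LncRNA-OIS1 knockdown against 18745.7 and 22372.6 in the senescent libraries. Its log2 change was -1.12 with BRD7 knockdown (adjusted p = 0.361), -2.91 with p53 knockdown (adjusted p = 0.0467) and -0.88 with LncRNA-OIS1 knockdown (adjusted p = 0.188). MDM2, the ubiquitin ligase of p53, had 2672.1 with BRD7 knockdown and 1214.9 with p53 knockdown against 3126.9 and 3192.3 in the senescent libraries (adjusted p = 0.889 for BRD7 and 0.117 for p53 knockdown). BRD7 against p53 knockdown called 0 of the 28, with a median of 0.86 beside -0.02 over all genes. In that comparison 9 had an unadjusted p under 0.05, beside 6.36% of all genes. In senescent libraries against the control 10 of the 28 rose and 0 fell, beside 7.95% of all genes called higher and 7.10% lower, with a median of 1.39.

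The genes most like each called gene were named by Pearson's r of log2 values over the libraries, as a description. They have the highest r of 12481 genes over 8 or 9 libraries, so high values can come from the search alone. Over 9 libraries r can also rest largely on a single library far from the rest. Such a library is the BRD7 knockdown for BRD7 and the control for SMARCA2. Over the 8 libraries outside its own knockdown, APITD1, RAB28 and EFCAB11 were closest to BRD7 (r of 0.916, 0.913 and 0.902). Over all 9 libraries RFWD2, FUBP3 and MZT2A were closest (0.916, 0.915 and 0.859). FUBP3 stood at 906.1 in the BRD7 knockdown library and between 1366.4 and 1821.6 elsewhere. The closest to SMARCA2 were KIAA0430, PPP1R3B and MYO1C (0.978, 0.977 and 0.972). For ARID1A they were PPM1B, TBL1XR1 and UTRN (0.988, 0.985 and 0.984). ARID1B was closest to TCF4, TEAD2 and PEG10 (0.986, 0.967 and 0.966), and ARID2 to PLSCR1, MIER1 and IFIH1 (0.936, 0.918 and 0.915). TBL1XR1, a subunit of the NCoR corepressor complex, stood at 989.2 and 950.8 in the senescent libraries against 2419.1 in the control. IFIH1, the RNA sensor MDA5, stood at 213 in the BRD7 knockdown library, its highest, against 41.8 and 39.7 in the senescent libraries.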

How the data were processed

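RNA of 9 libraries was measured by polyA RNA-seq with a TruSeq kit, per the labels' protocols. The deposited values are a signal, the authors' normalised read count per gene. The submitters' processing notes list TopHat2, HTSeq and hg19, without versions, roles or an annotation. Quantile normalisation and the floor of 20 are known from the table's name and values. Such normalisation removes differences in total RNA and hides depth. Groups came from the sample labels. From the values as deposited, log2 without a pseudocount was fitted in R 4.3.3 with limma 3.58.1, for genes reaching 40 in at least 1 library. All 9 libraries entered 1 fit with 5 groups, 4 residual degrees of freedom and a variance trend. Tests were two-sided, with Benjamini-Hochberg adjustment over 12481 genes and a threshold of 0.05, for 9 comparisons. Called refers to this threshold, and log2 changes of groups are differences of log2 means. The fit was tested on simulated data. Ratios of paralogs were compared by exact permutation. The fit was repeated with a pseudocount of 10 or 50, without the filter, with a filter on the mean (80 or more), with scaling by median of ratios, without the variance trend, without each replicate in turn, on 2 groups alone and with a replicate block. Gene lists, written from general knowledge, were the 10 genes, further SWI/SNF subunits, other remodelling ATPases, other bromodomain genes, p53 targets and markers of 4 cell types. Named genes were the 10 genes, called further subunits, up to 2 called members per list, direction and comparison, and the 3 genes most like each called gene. CDKN1A and MDM2 were named in any case. The genes and lists were chosen with earlier results of these data known. The level of the transcript targeted in the p53 knockdown library is not reported here. Promoters came from RefSeq (GRCh38.p14), and no coordinates of the table's build were used.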

Additional observations from a re-analysis of the deposited data

Results flagged for a closer look

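ARID1A in the LncRNA-OIS1 libraries had 1 library far from the others. Replicate 3 stood at 1061.1 against 1238.3, 1223.6 and 1225.9 in replicates 1, 2 and 4, a gap of 0.917 of the group's range. All 4 values lay above the senescent libraries at 970.7 and 893. Without replicate 3 the log2 change against the senescent libraries was 0.40 in place of 0.35 (limma adjusted p = 0.113 and 0.122). The rule was applied to the 10 genes and 3 ratios, and chance alone flags about 1 in 20 such groups.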

How the results depend on the processing

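Depth is unknown, so what it limits could not be judged. The single control, p53 and BRD7 libraries borrow their spread from 6 libraries, and counts of called genes among the 10 moved with that spread. Leaving out 1 replicate gave 0 to 4 genes for senescent against control (4 with all libraries), 0 to 2 for LncRNA-OIS1 knockdown against control (2), 0 to 1 for p53 knockdown against control (1), 1 to 2 for BRD7 knockdown against control (1) and 0 to 3 for p53 knockdown against senescent (0). The count was 0 for BRD7 knockdown against senescent (1), for BRD7 against LncRNA-OIS1 knockdown (1) and for BRD7 against p53 knockdown (1). BRD7 knockdown against senescent also had 0 with pseudocounts of 10 and 50 and with no variance trend, and BRD7 against p53 knockdown had 0 with a pseudocount of 50. Called values among the 10 kept their sign in every alternative. Signs changed for BRD7 in senescent against control (-0.17 and 0.06 without senescent replicate 1 and 2), for PHF10 in LncRNA-OIS1 knockdown against senescent (-0.11 to 0.22 without 1 replicate, lowest without replicate 4, and -0.27 with the replicate block) and for the BRD7 to BRD9 ratio, whose values without 1 replicate ran from -0.09 (without senescent replicate 2) to 0.24. The SMARCA2 to SMARCA4 and ARID1B to ARID1A differences kept their sign. Replicate numbers 1 and 2 name hairpins. Deviations from group means correlated at -0.071 for number 1 and -0.099 for number 2. The deviations of the 2 senescent libraries mirror each other, so these values cannot settle whether the numbers pair the samples. The replicate block, fitted for LncRNA-OIS1 knockdown against senescent, left that count at 0. A left-out library also lowers the degrees of freedom. The causes of these changes were not tested.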

Other observations

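Remodelling ATPases outside SWI/SNF were set beside the 10 genes from a list of 19, of which 18 were tested. In senescent libraries against the control 3 fell and 0 rose, beside 7.10% of all genes called lower and 7.95% higher, with a median log2 change of -0.18. CHD6, a chromodomain helicase, had 831.2 and 779.3 in the senescent libraries against 1787.7 in the control (log2 -1.15, limma adjusted p = 0.0134), and it was also lower than the control in all 3 knockdown groups (log2 -1.16 for BRD7, -1.07 for p53 and -1.05 for LncRNA-OIS1). HELLS, a helicase of DNA methylation upkeep, had 209.3 and 199.2 in the senescent libraries against 475.9 in the control (log2 -1.22, adjusted p = 0.0477). With p53 knockdown HELLS stood at 636.1 against 209.3 and 199.2 in the senescent libraries and was the 1 gene of the list called there (log2 1.64, adjusted p = 0.0495), a call lost without either senescent library or LncRNA-OIS1 replicate 1, 2 or 3, where no gene of the table was called. For p53 knockdown against senescent libraries 2.27% of all genes were called higher and 1.57% lower. LncRNA-OIS1 and BRD7 knockdown against senescent libraries called 0 of the 18 (4 and 2 at an unadjusted p under 0.05, beside 22.5% and 13.9% of all genes).

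Among 32 other bromodomain genes tested, 6 fell and 1 rose in senescent libraries against the control, beside 7.10% of all genes called lower and 7.95% higher, with a median of -0.27. BRD3, a BET-family reader of acetylated histones, had 229.4 and 223.2 in the senescent libraries against 525.6 in the control (log2 -1.22, adjusted p = 0.0319). CREBBP, a histone acetyltransferase, had 766.4 and 829.7 in the senescent libraries against 1718.3 in the control (log2 -1.11, adjusted p = 0.0281). SP110, an interferon-induced nuclear body gene, rose, at 563.3 and 655 in the senescent libraries against 283.3 in the control (log2 1.10, adjusted p = 0.0467). With LncRNA-OIS1 and BRD7 knockdown 0 of the 32 were called against senescent libraries (10 and 3 at an unadjusted p under 0.05, beside 22.5% and 13.9%).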
